A study of Mus musculus with 8 samples.

Results

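Integrins and basement membrane genes are 39 genes for the receptors that hold a cell to its matrix and for the matrix itself, of 21000 mouse protein-coding genes with a curated RefSeq transcript. The list holds 22 receptor genes, which are 21 integrin chains and dystroglycan, and 17 matrix genes. All 39 had a curated transcript. A gene was counted as having a c-Jun peak when the centre of a peak lay within 10 kb of one of its transcription start sites (TSSs).

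Integrins are surface receptors made of 1 alpha and 1 beta chain, which bind matrix proteins outside the cell and couple to the actin cytoskeleton inside. The basement membrane is a sheet of laminin and collagen IV networks joined by nidogen and perlecan, and it underlies the epiblast, the tissue from which these cells derive. c-Jun pairs with Fos and related proteins to make AP-1, a transcription factor that binds the sequence TGACTCA or its reverse complement TGAGTCA.

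The data were c-Jun ChIP-seq of mouse epiblast stem cells (EpiSCs), and of kEpiSCs, made from EpiSCs by adding Klf4 under the CAG promoter. The labels give the EpiSC strain as CBA/CaJ X C57BL/6J, whereas the study's methods name mothers of another strain and OG2 fathers, which carry the Oct4-GFP reporter, so the reporter is not particular to kEpiSCs. The transgene was brought in by lentivirus and stable cells were selected with G418. Both lines were described as kept in ActivinA and bFGF at 20 ng/ml each. The c-Jun ChIP was done in 2 libraries a line, beside 2 of input, but 1 peak list stood for each line, so no spread between replicates can be given and the lines could not be compared beyond replicate error. The peak list of EpiSCs held 16166 peaks with a median of 10 reads at the summit, and that of kEpiSCs held 6032 with a median of 14. No expression values were used here, so the identity of the cells was not checked against marker genes. As for the antibody, its field in the labels and the paper give c-Jun, but the labels' protocol text gives H3K27ac.

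The sequences below show what c-Jun peaks near the members looked like at the base level. They are 41 bases each from the GRCm38.p6 assembly (mm10), written 5′ to 3′ on the strand of the gene. Capitals mark an AP-1 site, and the first 4 are centred on the AP-1 site nearest the summit of the 4 highest-scoring EpiSC peaks that had one within 100 bp of the summit.
Itgb2, chr10:77531813-77531853, plus strand: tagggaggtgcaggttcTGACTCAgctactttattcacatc
Itgav, chr2:83714950-83714990, plus strand: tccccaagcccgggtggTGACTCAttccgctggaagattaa
Itga5, chr15:103370628-103370668, minus strand: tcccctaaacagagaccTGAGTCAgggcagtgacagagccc
Itga3, chr11:95085904-95085944, minus strand: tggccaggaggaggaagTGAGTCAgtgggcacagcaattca

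The next 2 are centred on the summit of the 2 highest-scoring EpiSC peaks without an AP-1 site in that window. Both belong to matrix genes.
Sparc, chr11:55428270-55428310, minus strand: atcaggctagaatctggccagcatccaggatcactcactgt
Thbs1, chr2:118110771-118110811, plus strand: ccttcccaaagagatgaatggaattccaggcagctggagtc

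The last 2 were chosen after their values were seen, as was the window around the summit. The first holds the CRE, TGACGTCA, a site known for Jun with ATF or CREB partners, in capitals. The second holds the AP-1 site of the highest-scoring EpiSC peak inside any member, which lay in coding exon 2 of Hspg2.
Itgav, chr2:83718702-83718742, plus strand: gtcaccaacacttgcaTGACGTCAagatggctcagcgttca
Hspg2, chr4:137501179-137501219, plus strand: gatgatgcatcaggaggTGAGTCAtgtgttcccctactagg

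In EpiSCs 16 of the 39 members had a peak this near, which is 41.0% (95% Wilson interval 27.1 to 56.6%), against 21.8% of all protein-coding genes. Long genes are common in the list, with 25 members among the longest 20% of genes. With gene lengths cut into 10 groups and averaged as the members fall into them, the share was 23.9%. In kEpiSCs 12 members had a peak, or 30.8% (18.6 to 46.4%), against 8.27% of all genes and 9.27% at the same lengths. In a further 32 integrin and basement membrane genes outside the list the shares were 21.9% and 6.25% in EpiSCs and kEpiSCs, near those of all genes. These intervals, like all below, cover counting error only, and no test was made over the list. The members were chosen with earlier results of these data known, so no conclusion about an excess is drawn from these shares.

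The 16 genes with an EpiSC peak were the integrin chains Itga2b, Itga3, Itga5, Itga6, Itgav, Itgb1, Itgb2, Itgb4 and Itgb6 and the matrix genes Lama3, Lamb1, Lamc1, Hspg2, Fn1, Sparc and Thbs1. Of these, 11 also had a kEpiSC peak, which is 68.8% (44.4 to 85.8%) against 30.2% of all genes with an EpiSC peak. Itga6, Itgb2, Itgb6, Hspg2 and Fn1 had a peak within 10 kb in EpiSCs and none in kEpiSCs, and Itgb5 had one in kEpiSCs and none in EpiSCs. The 11 genes with a peak in both lines were 28.2% (16.5 to 43.8%) of the members, against 6.58% of all genes. A peak in either line was present at 17 members, or 43.6% (29.3 to 59.0%) against 23.5% of all genes, and 22 members had none.

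Receptors and matrix genes had peaks at about the same share. In EpiSCs 9 of the 22 receptor genes had a peak, or 40.9% (23.3 to 61.3%), and 7 of the 17 matrix genes, or 41.2% (21.6 to 64.0%). In kEpiSCs the shares were 31.8% of the receptors (7 genes, 16.4 to 52.7%) and 29.4% of the matrix genes (5 genes, 13.3 to 53.1%). The intervals overlap almost whole, so a difference between both sides was not detectable with this number of genes.

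**Figure D1:**
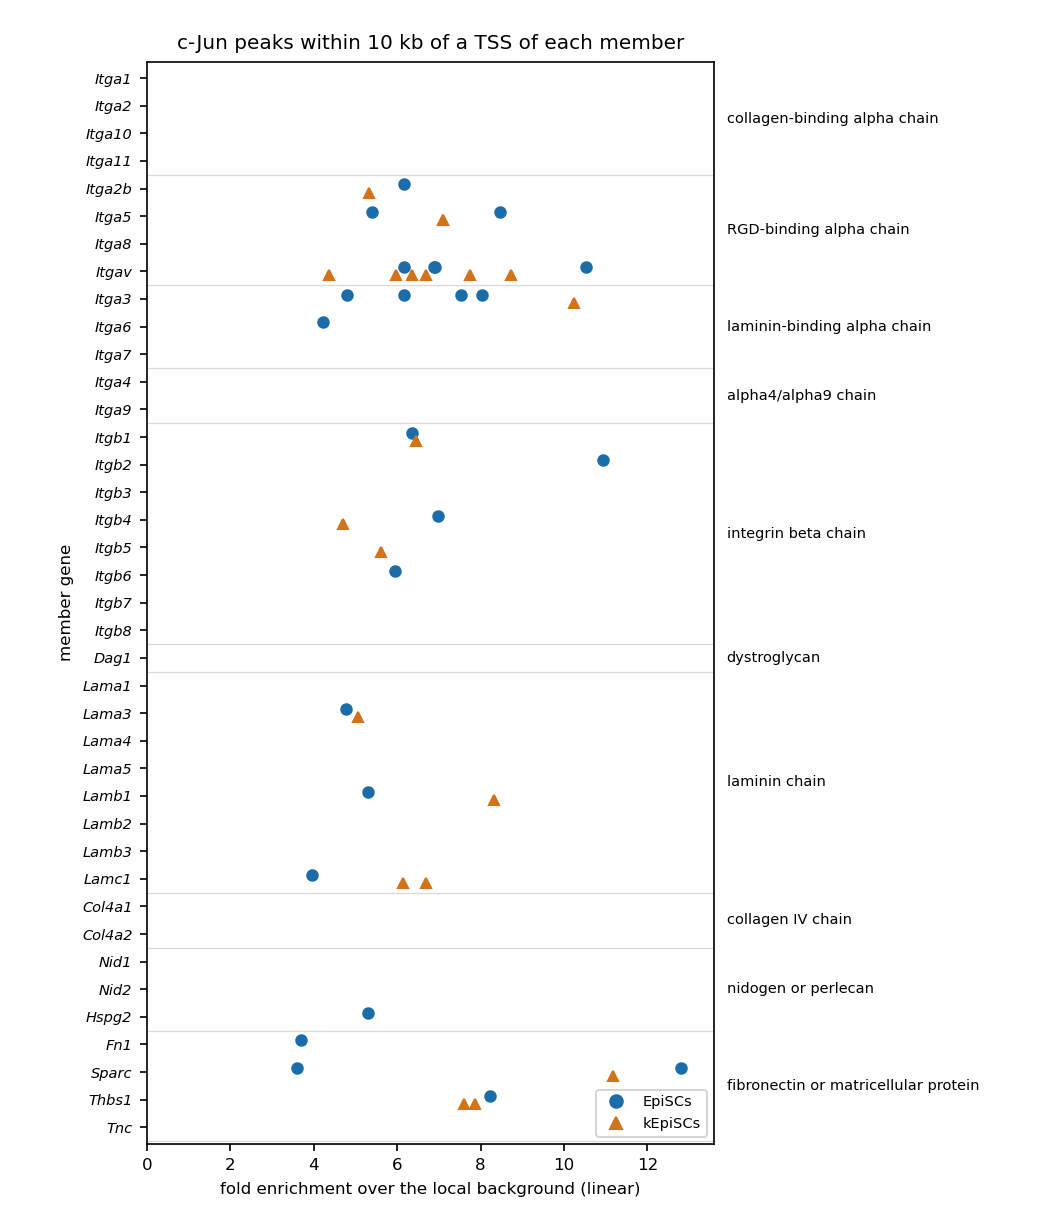
Fold enrichment over the local background (x axis, linear) of every c-Jun peak up to 10 kb from a TSS of each of the 39 members (y axis, by role), with circles for EpiSCs and triangles for kEpiSCs. The 4 collagen-binding alpha chains and both collagen IV chains have no point, Itgav has 4 EpiSC and 6 kEpiSC peaks, and the highest point is that of Sparc in EpiSCs at 12.8; the 2 kEpiSC peaks of Itga5 have the same fold and overlap.

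Among the alpha chains, those that bind proteins with the RGD motif, such as fibronectin and vitronectin, had a peak at 3 of 4 genes in both lines, or 75.0% (30.1 to 95.4%). The shares of all genes to set beside this and each role below are 21.8% in EpiSCs and 8.27% in kEpiSCs, and roles hold so few genes that their intervals are wide. Itga5, the alpha chain of the fibronectin receptor, had 2 EpiSC peaks upstream of its TSS. The stronger lay 3924 bp upstream (chr15:103370586-103370844) with a fold enrichment of 8.47 at 15 reads, and the other 4585 bp upstream with 5.40 at 8 reads. The fold is the reads at the summit plus 1 over the local background plus 1, with each kEpiSC read counted as 0.775. In kEpiSCs the stronger EpiSC peak was present again at 3875 bp upstream with a fold of 7.09 at 17 reads. A kEpiSC peak of the same fold and reads lay 110 bp downstream of the TSS in exon 1, where EpiSCs had none.

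Itgav, the alpha chain that pairs with several beta chains, carried 4 peaks within 10 kb in EpiSCs, as many as Itga3, and 6 in kEpiSCs, the most of any member there. The strongest in EpiSCs was 9739 bp upstream (chr2:83714289-83715027), with a fold of 10.5 at 16 reads, and the kEpiSC peak that overlapped it had 8.72 at 18 reads. The peak with the CRE lay 5741 bp upstream (chr2:83718396-83718915), with a fold of 6.90 in EpiSCs and 7.76 in kEpiSCs. In intron 1 of Itgav, peaks 4070 bp and 8082 bp downstream of the TSS had folds of 6.88 and 6.16 in EpiSCs. All 4 EpiSC peaks of Itgav overlapped a kEpiSC peak, and kEpiSCs had 2 more, at 109 bp in exon 1 (fold 5.97) and at 1244 bp in intron 1 (fold 4.38). Among the 16 members with an EpiSC peak, 4 had 2 or more, or 25.0%, against 26.5% of all genes with one. Itgav and Itga3 had 4 each, a number reached or passed by 2.64% of all genes with an EpiSC peak. Among the 12 members with a kEpiSC peak, 4 had 2 or more, or 33.3%, against 15.6% of all genes with one. Itgav was the 1 member with 4 or more there, a number reached by 0.864% of all genes with a kEpiSC peak.

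Itga2b, the alpha chain of the platelet fibrinogen receptor, had 1 peak in intron 7 (chr11:102466042-102466314), 3705 bp downstream of the TSS, with a fold of 6.16 in EpiSCs and 5.32 in kEpiSCs. Itga8, which binds nephronectin, was the RGD-binding chain without a peak, and its closest EpiSC peak was 294626 bp away.

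The laminin-binding chains had an EpiSC peak at 2 of 3 genes, or 66.7% (20.8 to 93.9%), an interval that covers the share of all genes. Itga3 had 4 EpiSC peaks. One was in intron 2, 3684 bp downstream of its nearest TSS (chr11:95072949-95073111), with a fold of 8.05 at 11 reads, and the other 3 lay 7537, 9102 and 9595 bp upstream with folds of 6.16, 7.53 and 4.79. The nearest of the upstream peaks overlapped the single kEpiSC peak of Itga3, which had a fold of 10.2 at 19 reads. Itga6, which pairs with Itgb1 or with Itgb4, had a peak 172 bp downstream of its TSS in exon 1 (chr2:71786989-71787232) with a fold of only 4.23 at 7 reads, and none in kEpiSCs within 10 kb. Further inside Itga6, a peak 15038 bp from the TSS in intron 1 had a fold of 10.4 at 19 reads in EpiSCs and 9.38 at 18 reads in kEpiSCs.

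None of the 4 collagen-binding alpha chains (Itga1, Itga2, Itga10, Itga11) had a c-Jun peak this near in either line, which allows a share of up to 49.0% by the Wilson interval. The same was true of Itga4 and Itga9, which bind VCAM1 and other ligands. Itga1 was far from any peak, at 366719 bp in EpiSCs and 797039 bp in kEpiSCs. Itga10 had a peak of fold 4.32 in its last exon, exon 30, whose nearest TSS was that of Ankrd35. Itga4 had a peak of fold 7.53 in exon 28, 77106 bp from its TSS.

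Of the 8 beta chains, 4 had an EpiSC peak, or 50.0% (21.5 to 78.5%), and 3 a kEpiSC peak, or 37.5% (13.7 to 69.4%). In EpiSCs the interval just covers the share of all genes. Itgb1, the partner of most alpha chains, had a peak in intron 1 (chr8:128690521-128690755), 4984 bp from the TSS, with a fold of 6.36 at 9 reads in EpiSCs and 6.45 at 11 reads in kEpiSCs. Itgb4, the beta chain of hemidesmosomes, had a peak 3457 bp upstream in EpiSCs (chr11:115971208-115971328, fold 6.99) and one 3706 bp upstream in kEpiSCs (fold 4.69), which did not overlap. The strongest of the beta chains was Itgb2, the chain of leukocyte integrins, with a fold of 10.9 at 15 reads in intron 1, 1531 bp from the TSS (chr10:77531730-77532072). In kEpiSCs its closest peak was 278408 bp away.

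Itgb6, whose dimer with Itgav activates latent TGF-beta, had an EpiSC peak 6889 bp upstream of one of its 2 TSSs (chr2:60680513-60680651), with a fold of 5.95 at 8 reads. Itgb5, another partner of Itgav, had a kEpiSC peak in intron 1 (chr16:33837216-33837387), 7637 bp from the TSS, with a fold of 5.62 at 12 reads, and its closest EpiSC peak was 62148 bp from the TSS in intron 5. Itgb3, Itgb7 and Itgb8 had none within 10 kb in either line, nor did Dag1, which encodes dystroglycan, a laminin receptor that is not an integrin.

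Integrins work as pairs, so the peaks were also counted over the 19 known heterodimers whose chains are both members. In EpiSCs both chains had a peak in 6 pairs, namely Itga3, Itga5, Itga6 and Itgav with Itgb1, Itga6 with Itgb4, and Itgav with Itgb6. In kEpiSCs both chains had one in 4 pairs, Itga3, Itga5 and Itgav with Itgb1 and Itgav with Itgb5. Itga4 with Itgb7 was the pair without a peak at either chain in both lines. The pairs are not independent, since 12 of them share Itgb1 and 5 share Itgav. They restate which single chains had a peak, and with no such count for other genes nothing more can be read from them.

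Of the matrix genes, laminin chains had a peak at 3 of 8 genes in each line, or 37.5% (13.7 to 69.4%), which covers the share of all genes in EpiSCs but not in kEpiSCs. These were Lama3, Lamb1 and Lamc1 in both. Laminins are trimers of an alpha, a beta and a gamma chain. Lamb1 and Lamc1 form the first embryonic laminin with Lama1, which had no peak closer than 277618 bp in EpiSCs. They also pair with Lama5, whose closest EpiSC peak was 13089 bp from its TSS. Lamc1 had a peak 926 bp upstream in EpiSCs (chr1:153333475-153333948) with a fold of 3.96 at 10 reads. In kEpiSCs it had 2, at 1066 and 2482 bp upstream, with folds of 6.15 and 6.69. Lamb1 had an EpiSC peak in coding exon 4 (chr12:31272404-31272538, fold 5.29) and a kEpiSC peak in intron 3 (fold 8.32), at 7178 and 6416 bp from the TSS, which did not overlap. The Lama3 peak lay in coding exon 38, 1102 bp upstream of the second TSS, with folds of 4.76 in EpiSCs and 5.06 in kEpiSCs at 8 reads each.

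Hspg2, which encodes perlecan, was the 1 gene of 3 among nidogens and perlecan with an EpiSC peak, 361 bp upstream of the TSS (chr4:137468362-137468521), with a fold of 5.29 at 7 reads. No kEpiSC peak was within 10 kb of it. Nid1 and Nid2, which link laminin to collagen IV, had none in either line, and neither had Col4a1 and Col4a2, the chains of the main collagen of basement membranes.

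Fibronectin and the matricellular proteins, which modulate adhesion, had an EpiSC peak at 3 of 4 genes, or 75.0% (30.1 to 95.4%), and a kEpiSC peak at 2. Sparc, a collagen-binding matricellular protein, had the strongest peak of any member within 10 kb, 8291 bp upstream (chr11:55428233-55428509), with a fold of 12.8 at 21 reads in EpiSCs and 11.2 at 20 reads in kEpiSCs. It also had the weakest EpiSC peak of any member, with a fold of 3.60 in intron 1. Thbs1, which encodes thrombospondin-1, had a wide peak 1386 bp upstream (chr2:118110116-118110864) with a fold of 8.22 at 19 reads in EpiSCs and 7.59 at 19 reads in kEpiSCs. This peak lay in intron 1 of the noncoding gene Gm13986. kEpiSCs had a second peak in the promoter of Thbs1, 459 bp upstream, with a fold of 7.86. Fn1, which encodes fibronectin, had a weak peak 397 bp downstream of its TSS (chr1:71652747-71652926) with a fold of 3.70 at 6 reads. By the limits used below, it lay in the promoter of the noncoding gene Apol7d and not in that of Fn1. Tnc, which encodes tenascin-C, had none, with its closest EpiSC peak at 31258 bp.

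**Figure D2:**
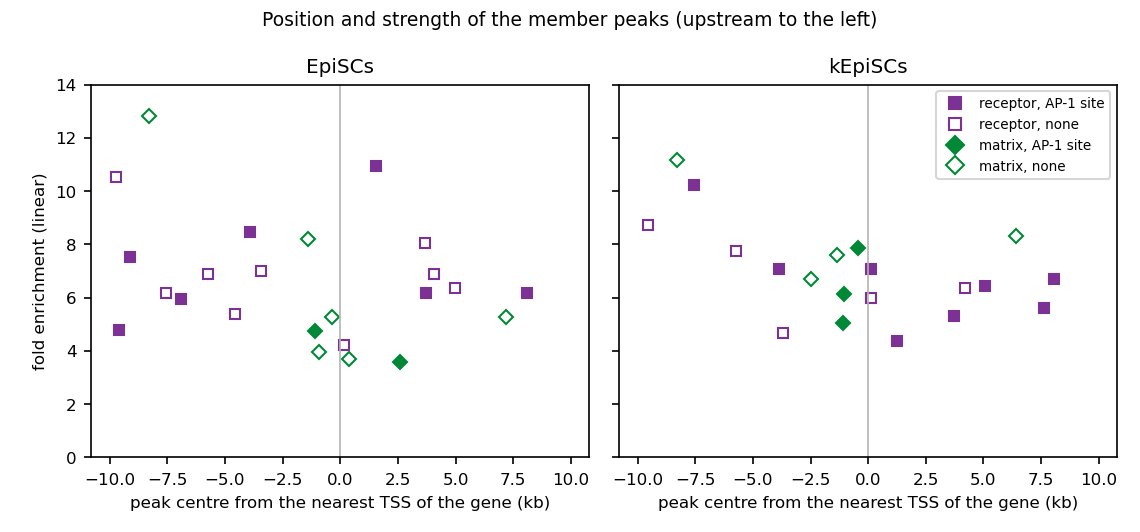
Fold enrichment (y axis, linear) of each member peak against the distance of its centre from the nearest TSS of the gene in kb (x axis, upstream to the left), with squares for receptor genes, diamonds for matrix genes and filled marks for an AP-1 site in the central 200 bp. In EpiSCs the 4 peaks within 1 kb of a TSS have folds of 3.70 to 5.29, below the median of 6.16 over the 24 member peaks.

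The closest peaks on both sides of the 10 kb limit were as follows. In EpiSCs the members just inside it were Itgb6 at 6889 bp and Lamb1 at 7178 bp by their closest peak. Just outside were Itgb3, the beta chain of the vitronectin receptor, at 10034 bp with a fold of 7.83, and Itga7, a laminin-binding chain, at 11781 bp. The Itga7 peak was strong, with a fold of 14.8 at 27 reads, but it lay 1492 bp from the TSS of Bloc1s1, in intron 2 of that gene. In kEpiSCs Itgb5 at 7637 bp and Sparc at 8278 bp were just inside, and Itga7 at 11798 bp, Fn1 at 14341 bp (fold 9.61) and Itga6 at 14993 bp just outside.

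A second protein-coding gene with its TSS inside 10 kb was found for 0 of 24 EpiSC peaks and 0 of 20 kEpiSC peaks. Among all peaks within 10 kb of a protein-coding TSS the shares near more than 1 gene were 18.7% and 16.1%.

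The share of members with a peak depended on the distance allowed. Within 1 kb of a TSS, 4 members had an EpiSC peak, or 10.3% against 9.25% of all genes, and 3 a kEpiSC peak, or 7.69% against 2.46%. Of the 4 EpiSC genes 1 was a receptor gene, Itga6, and 3 were matrix genes, Hspg2, Fn1 and Lamc1. Within 5 kb there were 14 members with an EpiSC peak, or 35.9% against 15.3%, and 7 with a kEpiSC peak, or 17.9% against 5.13%. At 50 kb the EpiSC count was 24 members, or 61.5% against 50.7%, and the kEpiSC count 24, or 61.5% against 27.0%. When each peak was given to the gene with the nearest TSS, 24 members had an EpiSC peak (61.5% against 33.5%) and 21 a kEpiSC peak (53.8% against 17.3%). Among the higher-scoring 50% of the peaks of each list, 7 members had an EpiSC peak within 10 kb (17.9% against 10.7%) and 6 a kEpiSC peak (15.4% against 3.82%). In EpiSCs 2 of these 7 were matrix genes, Sparc and Thbs1, or 11.8% of the matrix genes, close to the share of all genes.

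**Figure D3:**
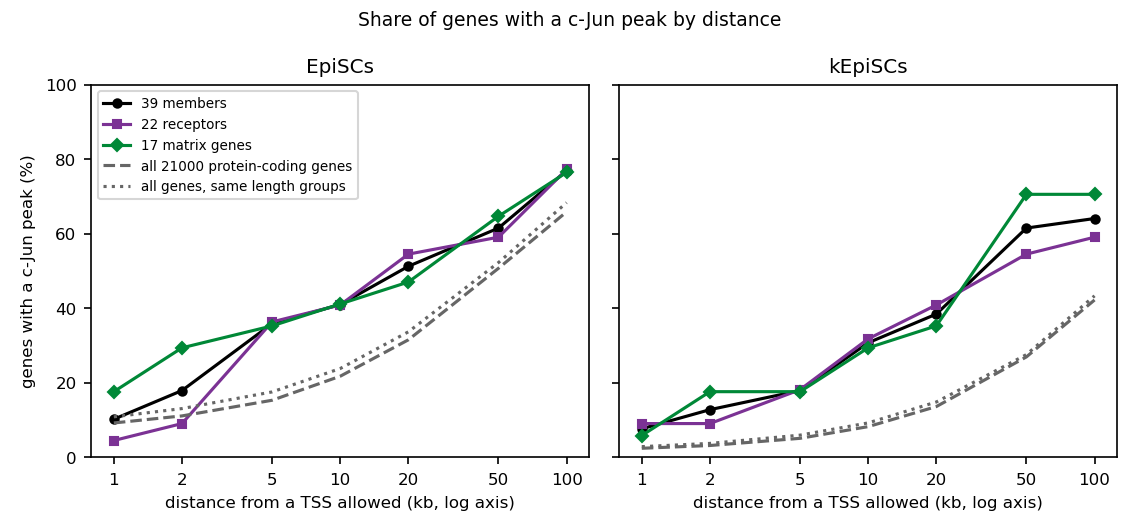
Percentage of genes with a c-Jun peak (y axis) within the distance of a TSS on the x axis (kb, log axis), for the 39 members, the 22 receptors, the 17 matrix genes and all genes, with the dotted line averaged over the length groups of the members. In EpiSCs the members lie near all genes at 1 kb (10.3% against 9.25%) and furthest above them at 5 to 20 kb, and in kEpiSCs they lie above all genes at each distance.

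The median member had its closest EpiSC peak 18.1 kb from a TSS and its closest kEpiSC peak at 28.5 kb, against 48.3 kb and 134 kb for all genes. Itga1, Itga2, Itga4, Itga8, Itga9, Itga11, Itgb8, Dag1, Lama1, Lama4, Lamb2, Lamb3 and Nid2 had no peak within 50 kb in either line.

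Several members without a peak near the TSS had peaks inside the gene. Over their whole length, 21 members (53.8%) held an EpiSC peak against 21.2% of all genes, and 15 (38.5%) a kEpiSC peak against 9.78%. Among genes in the longest 20%, the shares were 56.0% of the 25 members and 48.4% of all genes in EpiSCs, and 48.0% and 26.9% in kEpiSCs. Counted per length, members held 1.72 EpiSC peaks per 100 kb against 0.843 over all genes, and those of the longest 20% held 1.61 against 0.709. In kEpiSCs the values were 0.829 against 0.300, and 0.841 against 0.264.

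Itgb6 held the most, 9 EpiSC peaks, of which 7 lay in intron 1. The strongest were at 15599 bp from a TSS with a fold of 13.7 at 19 reads and at 21121 bp with a fold of 13.0 at 18 reads. In kEpiSCs Itgb6 held 3 peaks, with folds of 4.47 to 9.81. Col4a1 and Col4a2, which face away from each other from a shared promoter region, held 4 and 5 EpiSC peaks and 2 and 3 kEpiSC peaks, and all lay in introns. The closest to their TSSs was in intron 3 of Col4a2, at 27725 bp (chr8:11340390-11340669), with a fold of 6.88 in EpiSCs and 11.0 in kEpiSCs. The strongest in EpiSCs was in intron 4 of Col4a2, 59407 bp from the TSS, with folds of 10.9 in EpiSCs and 10.5 in kEpiSCs.

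The strongest peak inside any member was that of Hspg2 in coding exon 2 (chr4:137501037-137501277), 32354 bp from the TSS, with a fold of 17.1 at 24 reads in EpiSCs and 14.1 at 32 reads in kEpiSCs. Lamc1 followed with a peak in intron 1 (chr1:153300403-153300828), 32170 bp from the TSS, with a fold of 14.3 at 26 reads in EpiSCs and 9.80 at 22 reads in kEpiSCs. At both genes the peak deep in the gene had a higher fold than the EpiSC peak at the promoter. Fn1 had a fold of 10.9 in coding exon 34, 51971 bp from the TSS, above that of its peak 397 bp downstream of the TSS. No kEpiSC peak overlapped the peak in exon 34, which was nearer to the TSS of Atic, at 44107 bp.

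**Figure D4:**
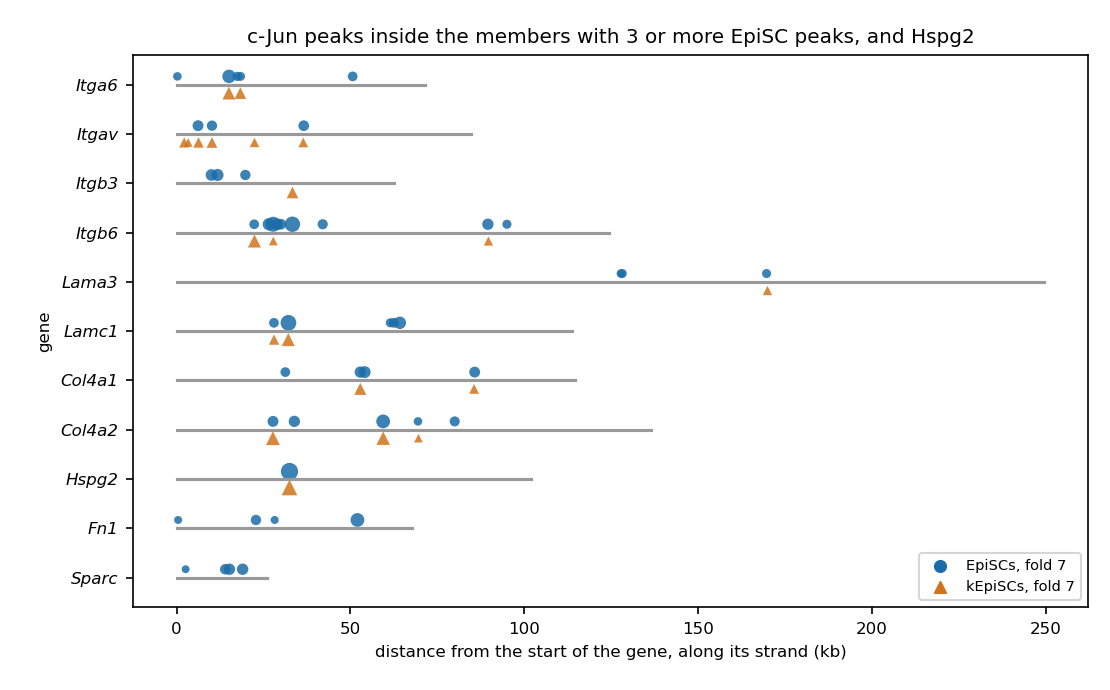
c-Jun peaks inside the members with 3 or more EpiSC peaks in the gene, and Hspg2 (rows), by distance from the start of the gene along its strand in kb (x axis), with circles for EpiSCs, triangles for kEpiSCs, an area in proportion to the fold and a grey line for the length of the gene. Itgb6 holds 9 EpiSC peaks, 7 of them in intron 1, and the largest mark is that of Hspg2 with a fold of 17.1.

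The member peaks were of ordinary strength for their list. Their median fold was 6.16 in EpiSCs (24 peaks, 3.60 to 12.8), the same as over all 16166 peaks (6.16), and 6.70 in kEpiSCs (20 peaks, 4.38 to 11.2) against 7.23. In EpiSCs the receptor peaks had a median fold of 6.62 (16 peaks, 4.23 to 10.9) and the matrix peaks of 5.03 (8 peaks, 3.60 to 12.8). In kEpiSCs the receptor peaks had 6.45 (13 peaks, 4.38 to 10.2) and the matrix peaks 7.59 (7 peaks, 5.06 to 11.2). The order of the medians differed between the lines, but the ranges overlap widely in both, so no difference is read from it.

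Most member peaks were away from promoters, taken as 1000 bp upstream to 100 bp downstream of a TSS. In EpiSCs 3 of 24 lay in a promoter, or 12.5% (4.34 to 31.0%), against 28.8% of all EpiSC peaks within 10 kb of a protein-coding TSS. These were the peaks of Hspg2 and Lamc1, in their own promoters, and that of Fn1, in the promoter of the noncoding gene Apol7d. The Fn1 peak was 397 bp downstream of the TSS of Fn1, past the limit for that gene. None of the 16 receptor peaks lay in a promoter, which allows a share of up to 19.4% by the Wilson interval. The peak of Itga6, a receptor gene, was past the limit at 172 bp downstream of its TSS. Introns and the space between genes held 9 peaks each, coding exons 2 and a noncoding exon 1. In kEpiSCs 1 of 20 lay in a promoter, that of Thbs1, or 5.00% (0.888 to 23.6%), against 24.5%. The kEpiSC share depends on the limit too, since the peaks of Itgav and Itga5 at 109 and 110 bp downstream were just past it. Within 1 kb on both sides of a TSS, a limit added after seeing the data, there were 3 of 20 kEpiSC member peaks (15.0% against 29.1%) and 4 of 24 EpiSC ones (16.7% against 36.6%).

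Of 24 EpiSC member peaks 9 had an AP-1 site in their central 200 bp, or 37.5% (21.2 to 57.3%). The share was 35.7% of all peaks within 10 kb of a protein-coding TSS, 45.9% of all peaks and 4.02% of flanking windows 2000 bp away. In kEpiSCs 11 of 20 had one, or 55.0% (34.2 to 74.2%), against 49.2%, 58.5% and 4.09%. The members' shares were thus within counting error of those of other peaks. Receptor peaks had an AP-1 site at 7 of 16 in EpiSCs (43.8%, 23.1 to 66.8%) and 8 of 13 in kEpiSCs (61.5%, 35.5 to 82.3%), and matrix peaks at 2 of 8 (25.0%, 7.15 to 59.1%) and 3 of 7 (42.9%, 15.8 to 75.0%), with intervals that overlap. Searched within 100 bp of the summit instead, a window chosen after seeing the data, 50.0% of the EpiSC and 60.0% of the kEpiSC member peaks had a site. Over all peaks of each list the shares in that window were much the same, at 49.2% and 62.2%. The Itgav peak 9739 bp upstream is an example of the difference, since the peak is 739 bp wide and its site, shown above, is 31 bp from the summit.

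Other sites were rarer. The CRE TGACGTCA was in the central 200 bp of 1 member peak in each line, that of Itgav 5741 bp upstream in EpiSCs and the peak that overlapped it in kEpiSCs, against 3.41% and 4.70% of all peaks within 10 kb of a protein-coding TSS. The letters CATTCC or GGAATG, known for TEAD factors, were in that window of 1 of 24 EpiSC and 2 of 20 kEpiSC member peaks, against 15.1% and 17.7%. The Itgav sequence shown above with an AP-1 site also holds CATTCC, which lies outside the central 200 bp of its peak. Shares around the summit are given for AP-1 sites only. The letters CCGCCC or GGGCGG, known for KLF and SP factors, were in 3 EpiSC peaks (12.5%, against 21.1%) and 4 kEpiSC peaks (20.0%, against 18.8%). The order in EpiSCs depended on the peaks compared. Among peaks 1 to 10 kb from a protein-coding TSS, 3 of 20 EpiSC member peaks had these letters (15.0%, 5.24 to 36.0%), against 7.69% of all. In kEpiSCs 3 of 17 member peaks at that distance had them (17.6%, 6.19 to 41.0%), against 8.91% of all. Both intervals cover the share of all peaks at that distance.

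The peak lists of both lines overlapped at the members. Of the 24 EpiSC member peaks 12 shared at least 1 bp with a kEpiSC peak, or 50.0% (31.4 to 68.6%), against 28.3% of all EpiSC peaks and 27.4% averaged over peaks of similar fold (10 groups). Receptor peaks (8 of 16) and matrix peaks (4 of 8) had the same share. When the overlap had to cover 50% of both peaks, 29.2% of the member peaks were shared, against 18.9% of all. Seen from kEpiSCs, 12 of 20 member peaks overlapped an EpiSC peak, or 60.0% (38.7 to 78.1%), against 75.8% of all kEpiSC peaks. The 8 kEpiSC member peaks without overlap were at Itgav (2 peaks), Itga5, Itgb4, Itgb5, Lamb1, Lamc1 and Thbs1.

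**Figure D5:**
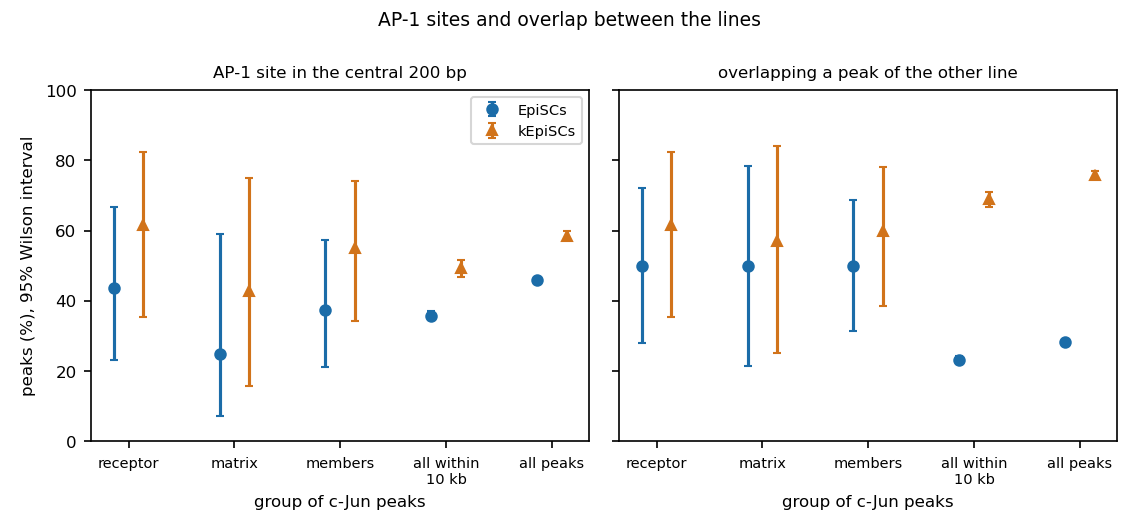
Percentage of c-Jun peaks (y axis) with an AP-1 site in the central 200 bp (left) and of peaks that overlap a peak of the other line (right), for receptor, matrix and all member peaks, all peaks within 10 kb of a protein-coding TSS and all peaks of a list, with 95% Wilson intervals. For AP-1 sites the interval of the members covers the value of both larger groups, whereas for overlap in EpiSCs the members at 50.0% lie above all peaks at 28.3%.

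The core promoters of the members, from 250 bases before to 50 after the start in RefSeq (GRCm38.p6), matched 27 of the 39 genes with 32 promoters. An AP-1 site was present in 1 of them, that of Itga9, or 3.13% against 5.20% of all 32851 promoters. The CRE was in none, against 1.79% of all promoters. The letters CCGCCC or GGGCGG were in 18, or 56.3% against 35.7%. CATTCC or GGAATG was in 4, or 12.5% against 14.7%.

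Among genes that work with the members, integrin activators and adaptors had an EpiSC peak at 11 of 18 genes, or 61.1% (38.6 to 79.7%), and a kEpiSC peak at 4, or 22.2% (9.0 to 45.2%). The shares of all genes, as above, were 21.8% and 8.27%. The strongest were Bcar1, an adaptor of focal adhesions, with a fold of 12.6 at 4232 bp upstream in EpiSCs and 6.28 in kEpiSCs, and Tln1, which encodes talin, the protein that activates integrins, with a fold of 9.26 at 1829 bp upstream and 5.15 in kEpiSCs. Parvb, a parvin that binds integrin-linked kinase, had a fold of 8.21, and Fermt1, a kindlin, had 7.53 at 68 bp from the TSS.

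The 32 integrin and basement membrane genes outside the list had an EpiSC peak at 7 genes, or 21.9% (11.0 to 38.8%), and a kEpiSC peak at 2, or 6.25% (1.73 to 20.1%), which is near the share of all genes in both lines. Among those with the highest-scoring EpiSC peaks were Tinagl1, a laminin-binding matrix protein, with a fold of 10.1, Col18a1, a basement membrane collagen, with 10.3, and Vtn, which encodes vitronectin, with 7.57. Tinagl1 also had a kEpiSC peak, with a fold of 7.74. Of 13 collagen folding and crosslinking enzymes, Plod3, Loxl4 and Pxdn had an EpiSC peak (23.1%, 8.18 to 50.3%), with folds of 6.88, 4.66 and 4.23, and none had a kEpiSC peak, which allows up to 22.8% by the Wilson interval.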

How the data were processed

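c-Jun ChIP-seq of 2 lines, with 2 ChIP and 2 input libraries each, was used. Per the labels, cells were fixed in 1% formaldehyde for 15 min and chromatin was sonicated to 100 to 500 bp. According to the methods, the authors aligned reads to mm10 by Bowtie2, kept unique ones and ran MACS2 with its defaults. In their processing notes the submitters name bcl2fastq, SAMtools and bedtools too, without versions. The deposited columns are a score made from the q-value, a fold ratio over the local background and −log10 of the p-value. Each list is named with the first ChIP replicate, and whether it pools both is not stated.

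From the deposited fold and p-value the reads at each summit were solved (100% of peaks within 0.01 in −log10 p), and the step was tested on simulated data. What 1 read counts as was given in that test, so its estimate was not tested. In the data it was sought from 1 downward, since a lower value with more reads can fit the same peaks. In kEpiSCs 1 read counted as 0.775. TSSs and gene bodies were those of curated RefSeq transcripts (GRCm38.p6), and gene lengths were cut into 10 groups. Motifs were searched on both strands. Shares have 95% Wilson intervals. With 1 list per line no test was made. The members and lists were chosen with earlier results of these data known. The text names all members, up to 4 genes with the highest-scoring peak of each of 3 other lists, and a non-member whose TSS is nearer to a peak than the member's. One gene that this rule names is not reported here. Alternatives covered the distance, the TSSs, the assignment, the score, the motif window and the overlap. The tools were samtools 1.23.1, pandas 2.3.3, scipy 1.17.1, matplotlib 3.10.9, numpy 2.4.6 and pysam 0.24.0 under Python 3.11.15.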

Additional observations from a re-analysis of the deposited data

How the results depend on the processing

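Of 56 alternative values, 39 stayed within 1.5 times the count or within the interval reported, and 17 moved. Keeping the higher-scoring 50%, the EpiSC counts were 7 members, 5 receptor genes and 2 matrix genes, and the kEpiSC counts 6, 3 and 3. At 50 kb, 11 matrix genes had an EpiSC peak, and 24 members, 12 receptor genes and 12 matrix genes a kEpiSC peak. At 5 kb the kEpiSC counts were 7, 4 and 3. By the nearest TSS, 12 matrix genes had an EpiSC peak, and 21 members and 11 matrix genes a kEpiSC peak. With 50% of both peaks covered, 29.2% of EpiSC member peaks were shared. These alternatives change how many peaks or how much sequence could count. In all 48 gene counts, the reported ones included, the share was above that of all genes, by 1.10 to 4.62 times. The counts overlap, since receptor and matrix genes make up the members, and limits of 1 and 2 kb are not among them. In EpiSCs the receptor genes were at 4.55% against 9.25% within 1 kb, and at 9.09% against 11.1% within 2 kb. The members within 1 kb in EpiSCs were at 10.3%, against 10.9% at the same lengths.

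No paired analysis was possible because only 1 list was given per line, so neither a replicate block nor leaving out a replicate was run. A peak of 5 to 10 reads is close to the calling limit, and a missing peak does not show that c-Jun was absent. Binding and ChIP depth of the lines cannot be told apart here.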
